A study of Mus musculus with 3 samples.

Results

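The carboxylesterase genes Ces1b, Ces1c, Ces1d, Ces1e, Ces1f, Ces1g, Ces2a, Ces2e, Ces3a and Ces3b were examined in primary hepatocytes of wild-type mice. The 10 genes were chosen by symbol from the 32285 features that each of the 3 libraries listed, and were read in barcodes that held 200 genes or more and no more than 50% mitochondrial counts. For 12 weeks the mice had eaten normal chow (the ND group), a 60% high fat diet (the HFD group) or that high fat diet with 0.25% hyodeoxycholic acid (the HFD_HDCA group). Hyodeoxycholic acid (HDCA) is a bile acid. Cells came from collagenase perfusion and were sequenced with a droplet kit that tags the 3′ end of each captured transcript with a unique molecular identifier (UMI). Each group had 1 library, so no difference between diets has a replicate check and no p-value was computed. The number of mice behind a library, and their sex, were not given.

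Carboxylesterases are serine hydrolases that split ester, thioester and amide bonds. In liver most of them sit in the lumen of the endoplasmic reticulum, where they hydrolyse drugs and other xenobiotics, and some also hydrolyse stored neutral lipid, which can feed the assembly of very low density lipoprotein. Mice carry many more copies of these genes than humans, in families named Ces1 to Ces5, and the Ces1, Ces2 and Ces3 copies lie in tandem arrays.

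All 10 genes lie on chromosome 8 (GENCODE M21, mm10). The 6 Ces1 members occupied 280.6 kb on the minus strand, from 93056728 to 93337308. On the plus strand, Ces2a and Ces2e lay between 104734003 and 104934672, and Ces3a and Ces3b between 105048601 and 105093929. Each member had 12 to 14 exons in its longest coding transcript. Since these are tandem copies, the last 500 bases of their annotated coding transcripts were searched for 50-base windows that also occur in another gene. Ces3a shared 31.3% of its windows and Ces1b 25.1%, the largest shares, with Ces3b and Ces1c respectively. Ces1e and Ces1g shared 0%, and Ces2a 5.02%. Values of Ces1b, Ces1c, Ces3a and Ces3b are therefore the least certain as to which copy a read came from.

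The promoters of the 3 members with the largest differences between diets are shown first, as the 250 bases before the RefSeq transcription start (GRCm38.p6), 5′ to 3′ on the gene's strand. They are Ces2a at chr8:104733753-104734002 on the plus strand, Ces1e at chr8:93229620-93229869 on the minus strand and Ces3b at chr8:105083505-105083754 on the plus strand. Capitals mark matches to the motifs searched.
Ces2a: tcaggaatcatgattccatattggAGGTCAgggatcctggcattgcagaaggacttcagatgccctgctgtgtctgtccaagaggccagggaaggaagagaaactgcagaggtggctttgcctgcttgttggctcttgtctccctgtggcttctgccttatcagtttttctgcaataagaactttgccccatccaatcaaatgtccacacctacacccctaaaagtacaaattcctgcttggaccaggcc
Ces1e: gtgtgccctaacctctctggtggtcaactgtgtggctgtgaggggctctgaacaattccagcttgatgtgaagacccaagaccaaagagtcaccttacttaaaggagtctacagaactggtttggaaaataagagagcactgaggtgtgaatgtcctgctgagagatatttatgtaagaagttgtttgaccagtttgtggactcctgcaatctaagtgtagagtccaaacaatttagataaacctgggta
Ces3b: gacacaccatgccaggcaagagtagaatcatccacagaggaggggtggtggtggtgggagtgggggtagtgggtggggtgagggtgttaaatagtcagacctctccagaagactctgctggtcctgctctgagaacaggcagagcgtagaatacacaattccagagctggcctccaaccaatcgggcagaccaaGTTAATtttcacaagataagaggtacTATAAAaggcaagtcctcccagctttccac
Ces2a held 1 match to AGGTCA, the core that nuclear receptors bind, which began 226 bases before the start. Ces3b held a TATA box (TATAAA) that began 30 bases before the start and a match to the HNF1 core GTTAAT that began 56 bases before it. Ces1e held none of the motifs searched. The other motifs were the FOXA motif TGTTTAC, the STAT motif TTCNNNGAA and the antioxidant response core TGACNNNGC, and each was searched on both strands. Of 32851 RefSeq promoters cut to the same 250 bases, 14.0% held AGGTCA, 12.4% TATAAA, 6.43% GTTAAT, 3.17% TGTTTAC, 7.02% TTCNNNGAA and 10.2% TGACNNNGC. Among the 8 promoter entries matched to members, which covered 7 genes, 1 held AGGTCA, 2 held TATAAA, 1 held GTTAAT and 0 held any of the other motifs. A match describes these letters only.

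The promoters of the neighbours Ces1b (chr8:93080018-93080267) and Ces1c (chr8:93131284-93131533), both on the minus strand, are shown because of a long stretch that they share. Capitals mark their longest shared run, of 58 bases.
Ces1b: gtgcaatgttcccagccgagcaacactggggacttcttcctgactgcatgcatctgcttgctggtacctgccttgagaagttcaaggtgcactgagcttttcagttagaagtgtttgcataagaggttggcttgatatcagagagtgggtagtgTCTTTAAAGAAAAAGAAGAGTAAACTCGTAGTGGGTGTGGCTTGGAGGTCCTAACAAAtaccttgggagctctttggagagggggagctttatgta
Ces1c: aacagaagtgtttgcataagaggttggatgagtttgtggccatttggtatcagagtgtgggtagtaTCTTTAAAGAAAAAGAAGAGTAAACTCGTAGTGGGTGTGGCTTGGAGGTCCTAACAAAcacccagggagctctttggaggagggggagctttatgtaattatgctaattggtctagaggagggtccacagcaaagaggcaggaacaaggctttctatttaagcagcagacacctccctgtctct
The run began 96 bases before the start of Ces1b and 184 bases before that of Ces1c, and these windows were 44.8% identical. RefSeq lists a second Ces1b start inside the gene, whose window, not shown, was 76.9% identical to that of Ces1c, with the run 173 bases before the start and so almost aligned. These neighbours had very different levels, as described next.

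Levels are CPM, the UMIs of a gene summed over the retained barcodes of a library and scaled to 1000000 nuclear-encoded UMIs. Each UMI stands for 1 captured molecule, so values are not divided by transcript length, and capture may still differ between genes. The libraries kept 2776 ND, 2898 HFD and 3000 HFD_HDCA barcodes with medians of 813, 732 and 1018 nuclear-encoded UMIs, and 3734740 to 5795200 nuclear-encoded UMIs. The HFD_HDCA library stood apart in mitochondrial content, with a median of 14.5% over all its barcodes against 61.1% in ND and 63.1% in HFD, and 7.42% against 11.4% and 12.9% in retained ones. It also had fewer barcodes under 200 genes, 1371 against 2525 and 3192. All 10 hepatocyte markers were detected in each library. The 11 endothelial markers in the files were all detected in each library. They summed to 385 CPM in ND, 63.5 under HFD and 95.8 under HFD_HDCA. A barcode was said to carry a cell type's markers if they gave at least 5 UMIs and at least 1% of its nuclear-encoded UMIs. By this rule 75, 15 and 28 barcodes carried endothelial markers. A barcode with fewer marker UMIs counts as having no other cell type. Red cell haemoglobin genes were at 0 in ND and summed to 342.5 CPM under HFD and 26.2 under HFD_HDCA. Retained barcode sequences shared between libraries numbered 5 for HFD and ND and 1 for each of the other pairs. Intervals are 95% and cover counting error only.

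Together the 10 genes gave 4004.5 CPM (3945 to 4065) in ND, 3906 (3843 to 3970) under HFD and 3560 (3512 to 3609) under HFD_HDCA. The sum differed by at most 1.12-fold between libraries, while single members differed by up to 4.74-fold. Ces1c, the esterase that liver secretes into plasma, and Ces3a together supplied most of it in each library. Ces1c made up 29.9% of the carboxylesterase UMIs in ND, 29.2% under HFD and 33.3% under HFD_HDCA. Ces3a made up 28.1%, 35.6% and 29.4%. The Ces1 group held 58.0% of the UMIs in ND, 50.3% under HFD and 61.0% under HFD_HDCA, and the Ces3 group 33.4%, 44.3% and 31.4%. The Ces2 group was the smallest, with 8.69%, 5.34% and 7.55%.

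**Figure D1:**
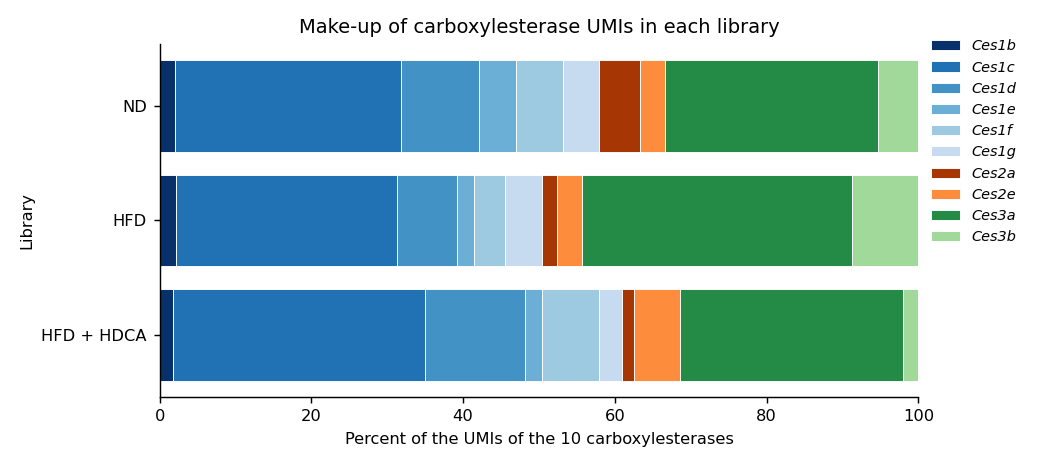
Bars show the percent of all UMIs of the 10 carboxylesterases that each gene supplied, in the ND, HFD and HFD + HDCA (HFD_HDCA) libraries, 1 library per diet. Ces1c and Ces3a fill the widest segments in every bar, and Ces3b goes from 5.27% in ND to 8.73% in HFD and 2.02% in HFD + HDCA.

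Within the Ces1 group, Ces1c stood at 1196 CPM in ND, 1139 under HFD and 1184 under HFD_HDCA. Its ratios between libraries stayed within 0.07 on the log2 scale. Ces1b, its neighbour, was at 79.3, 84.6 and 61.1 CPM and was the lowest member in ND. Ces1d, the triacylglycerol hydrolase that mobilises stored lipid for lipoprotein assembly, was at 409 CPM in ND, 305 under HFD and 471 under HFD_HDCA. Ces1f ran alongside it, at 246, 162 and 267 CPM. Both were lowest in HFD and highest in HFD_HDCA, with intervals that did not overlap between HFD and either other library.

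Ces1e, also known as egasyn, the protein that holds beta-glucuronidase in the endoplasmic reticulum, was at 197 CPM (184 to 210.5) in ND, 88.1 (78.8 to 98.1) under HFD and 78.9 (71.8 to 86.4) under HFD_HDCA. It was high in ND alone. Ces1g, an enzyme whose loss in mice is known to raise liver fat, was at 194 CPM in ND, 188 under HFD and 110 (102 to 119) under HFD_HDCA. Summed over each library, it was low in HFD_HDCA alone.

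Ces2a, a hydrolase of drugs and of acylglycerols, was at 216 CPM (202 to 230) in ND, 80.6 (71.8 to 90.2) under HFD and 52.5 (46.7 to 58.7) under HFD_HDCA. Its level stepped down from each library to the next, with no overlap of intervals. The step from HFD to HFD_HDCA was the less steady. Over 13 recomputations with other settings, its log2 ratio ran from -0.718 to -0.192. Ces2e, from the same array, was at 132 CPM (121 to 143) in ND, 128 (117 to 140) under HFD and 216 (205 to 229) under HFD_HDCA. Ces2a was the higher of the pair in ND and Ces2e in both high fat libraries.

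Ces3a was at 1125 CPM (1093 to 1157) in ND, 1390 (1352 to 1428) under HFD and 1048 (1022 to 1075) under HFD_HDCA. Ces3b was at 211 CPM (197.5 to 225) in ND, 341 (323 to 360) under HFD and 72.0 (65.2 to 79.2) under HFD_HDCA. Both Ces3 genes were highest in HFD and lowest in HFD_HDCA, and Ces3b moved over a much wider range.

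**Figure D2:**
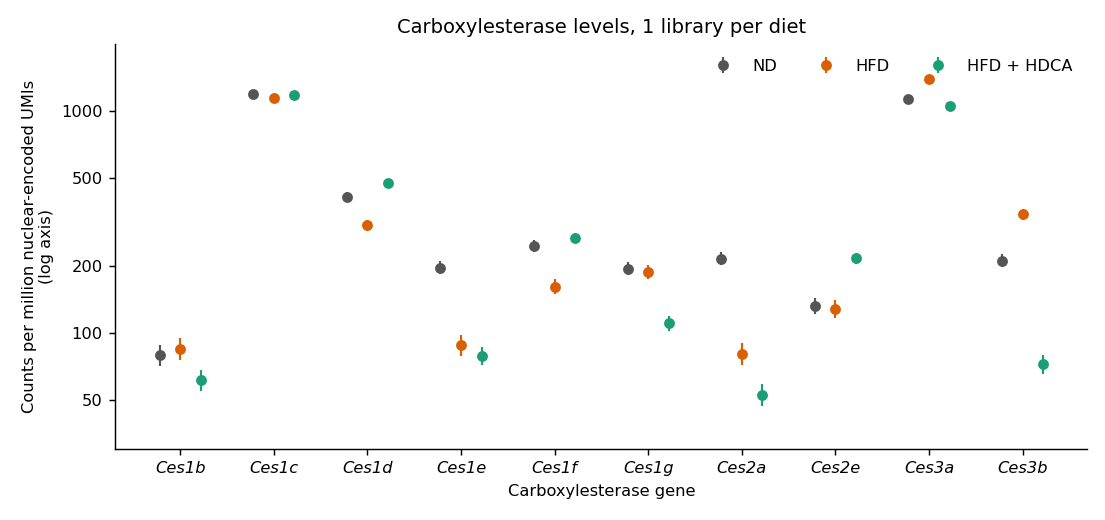
Points show the level of each gene in CPM on a log axis, in the ND, HFD and HFD + HDCA libraries, 1 library per diet, with bars for the 95% counting interval. Ces1c and Ces3a lie above 1000 in every library, Ces2a steps down from 216 to 80.6 to 52.5, and Ces3b falls to 72.0 in HFD + HDCA.

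The HFD library was then set against ND. A gene was counted as changed where the ratio reached 2-fold, a rule of size that stands in for a test. Ces2a fell 2.68-fold (log2 ratio -1.42, interval -1.61 to -1.23) and Ces1e fell 2.23-fold (-1.16, -1.35 to -0.97). These were the only members past 2-fold: 2 of 10 were lower and 0 higher, where over 7855 measured genes 3.53% were lower and 2.85% higher. The largest ratio upward was that of Ces3b at 0.69 (0.57 to 0.82), and Ces3a followed at 0.31 (0.25 to 0.36). Ces1f was at -0.61 and Ces1d at -0.42, while Ces1b, Ces1g and Ces2e had intervals that held 0. The members' median was -0.06, as was that of all measured genes.

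With HDCA added to the high fat diet, Ces3b fell 4.74-fold against HFD (log2 ratio -2.24, interval -2.41 to -2.08). It was the only member past 2-fold: 1 of 10 was lower and 0 higher, where 1.48% of measured genes were lower and 1.63% higher. The ratios of Ces2e (0.76, 0.60 to 0.91), Ces1f (0.72, 0.59 to 0.86) and Ces1d (0.63, 0.53 to 0.73) lay above 0 but under 2-fold. Those of Ces1g (-0.77, -0.93 to -0.61), Ces2a (-0.62, -0.85 to -0.38), Ces1b (-0.47) and Ces3a (-0.41) lay below it. Members of 1 array went opposite ways here, as with Ces2a and Ces2e, or Ces1g and Ces1f. The members' median was -0.28, against 0.05 for all measured genes.

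Against ND, 3 of 10 members were at least 2-fold lower in HFD_HDCA and 0 were higher, where 2.97% of measured genes were lower and 2.62% higher. Ces2a fell 4.11-fold (log2 ratio -2.04, interval -2.23 to -1.85), Ces3b 2.93-fold (-1.55, -1.72 to -1.38) and Ces1e 2.49-fold (-1.32, -1.49 to -1.15). Ces1c was at -0.01 (-0.07 to 0.04), Ces1f at 0.12 and Ces1d at 0.20. The 3 comparisons share libraries, so their ratios are not independent of each other. Between any pair of libraries, diet and library cannot be told apart.

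Since mitochondrial content differed between libraries, the members past 2-fold were read within ranges of it. In barcodes of up to 15% mitochondrial counts, Ces2a was at 199 CPM in ND, 84.2 under HFD and 52.9 under HFD_HDCA. Ces3b was at 182, 320.5 and 70.3 CPM there, and Ces1e at 202, 77.2 and 75.2. These lay in the same order as over all retained barcodes. In the few barcodes of 30 to 50%, Ces1e was at 282 CPM (205.5 to 377) in ND, 175 (115 to 254) under HFD and 159 (96.9 to 245) under HFD_HDCA, less than 2-fold apart. Ces2a was at 319, 64.7 and 127 CPM in that range, and Ces3b at 300.5, 517 and 95.2. Ces2a was thus higher under HFD_HDCA than under HFD there. The part of RNA quality in the differences was not tested beyond these values.

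**Figure D3:**
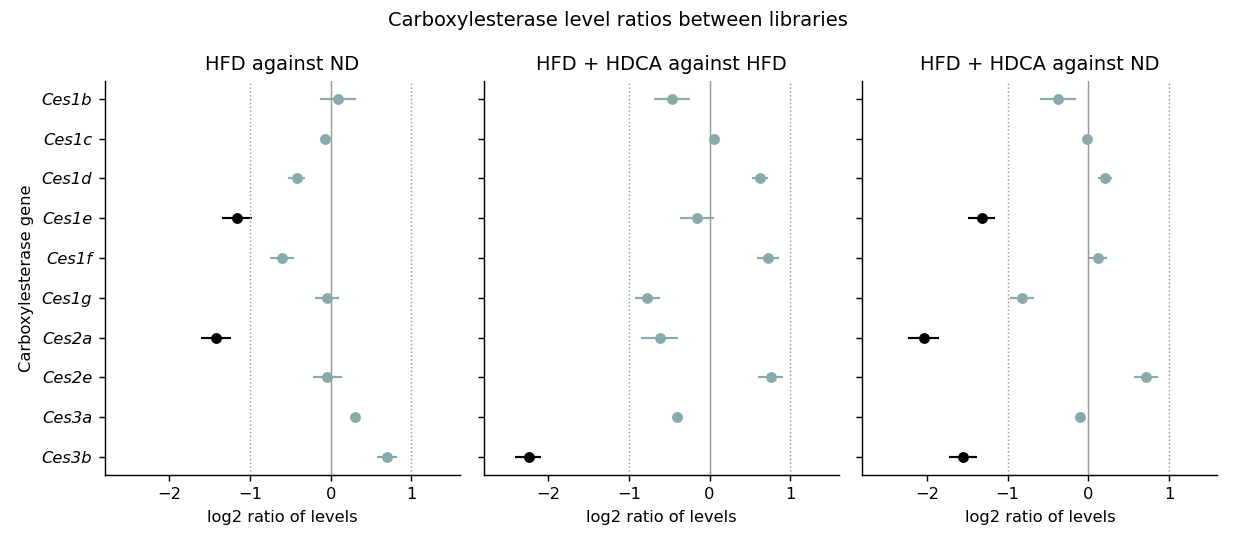
Points show the log2 ratio of each gene's level between libraries, 1 library per diet, with bars for the 95% counting interval, dotted lines at 2-fold and black points for ratios past it. Ces2a and Ces1e are past 2-fold in HFD against ND, Ces3b in HFD + HDCA against HFD, and all of these in HFD + HDCA against ND.

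The share of barcodes with at least 1 UMI was also read for the members that differed most. For Ces2a the share was 23.5% in ND, 9.01% under HFD and 8.77% under HFD_HDCA, and 9.07%, 3.19% and 2.77% once each barcode was thinned to 500 nuclear-encoded UMIs. Before thinning, the HFD (7.99 to 10.1%) and HFD_HDCA (7.78 to 9.84%) intervals overlapped. Thinning left out 339, 925 and 179 shallower barcodes. For Ces3b it was 23.1%, 30.7% and 11.9%, and 9.89%, 15.7% and 3.16% after thinning. Of the ND barcodes that carried endothelial markers, a cell type outside the hepatocyte lineage, 4% (0.833 to 11.3%) had a Ces2a UMI and 2.67% (0.325 to 9.30%) a Ces3b UMI. Those 75 barcodes had a median of 907 nuclear-encoded UMIs, and ND barcodes with no other cell type 805. Endothelial markers were highest in ND, as Ces2a and Ces1e were, so both were read again in barcodes that met no rule for another cell type. There Ces2a was at 219.5 CPM in ND, 81.2 under HFD and 53.0 under HFD_HDCA, and Ces1e at 197.5, 88.5 and 79.6, almost as in all retained barcodes. In summed counts, fewer barcodes with transcript and less transcript per barcode cannot be told apart.

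Ces1e also differed with barcode depth. With the barcodes of a library split by depth into 3 bins of similar size, ND held it at 450.5 CPM in the shallowest bin, 312 in the middle one and 126 in the deepest. In HFD it was at 207, 92.8 and 68.8 CPM, and in HFD_HDCA at 157, 124 and 55.8. The level was highest in the shallowest bin of each library, and ND lay above the other libraries in every bin. Ces1d was likewise highest in the shallowest bins, with 502, 406 and 395 CPM in ND and 767, 576 and 401 in HFD_HDCA. In barcodes of at least 1500 nuclear-encoded UMIs, a limit chosen after seeing the data, Ces1e in HFD against ND was at -0.89 (-1.16 to -0.62), short of 2-fold. Ces2a in the same barcodes was at -1.42, and Ces3b in HFD_HDCA against HFD at -2.10.

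In ND, the Ces1e interval of barcodes with endothelial markers held the level of barcodes with no other cell type. The 75 ND barcodes with endothelial markers held Ces1e at 160 CPM (82.7 to 280), from 12 UMIs, against 197.5 CPM in ND barcodes with no other cell type. Depth was not matched here, since deep barcodes, which held the least Ces1e, weigh most in the latter level. The middle depth bin of ND was at 312 CPM (274 to 354). Ces1c stood at 173 CPM in the endothelial barcodes and 1219 in ND barcodes with no other cell type, and Ces3a at 187 and 1147. Ces2e was at 93.4 CPM (37.6 to 192), from 7 UMIs, and 133 in the others, a level that its interval also held. All 10 members together were at 827 CPM (634 to 1060) in the endothelial barcodes and at 4078 in the others. In ND, 16% of the endothelial barcodes and 25.3% of the others had a Ces1e UMI. The other libraries had too few such barcodes for endothelial markers alone, so all other cell types were pooled there. In HFD_HDCA, Ces1e was at 0 UMIs in the 55 barcodes of any other type (0 to 66.0 CPM) and at 79.6 CPM (72.5 to 87.3) in the rest, with no overlap. In HFD it was at 33.1 CPM (0.838 to 184) in 36 such barcodes, from 1 UMI, and at 88.5 in the rest. Pooled in the same way, 97 ND barcodes held Ces1e at 164 CPM (93.95 to 267). In pooled barcodes the interval thus held the level of the rest in ND and HFD and not in HFD_HDCA. The 28 HFD_HDCA barcodes with endothelial markers had 0 Ces1e UMIs (0 to 142 CPM), an interval that held the level of the rest. The part that free RNA or depth had in the Ces1e difference was not tested.

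**Figure D4:**
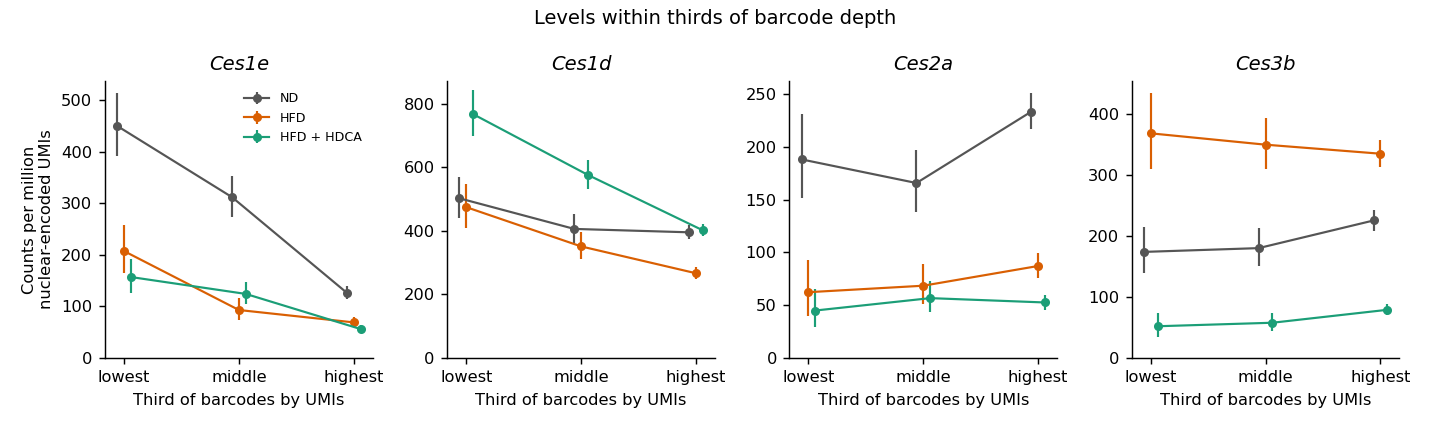
Points show the level of Ces1e, Ces1d, Ces2a and Ces3b in CPM, in 3 bins of each library's barcodes ordered by UMIs, with bars for the 95% counting interval. Ces1e goes from 450.5 to 126 in ND with depth, while Ces2a and Ces3b keep the order of the libraries in every bin.

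Liver lobules have a portal side, which receives blood, and a central side, which drains it, and hepatocyte genes are graded between them. Barcodes with at least 5 UMIs of zone landmarks were ranked by the pericentral share of those UMIs (8 pericentral genes such as Cyp2e1, 7 periportal genes such as Cyp2f2) and split into 3 zones of similar size within each library. The zones are ranges of a score, not cell types. The pericentral zone began at a score of 0.4 in ND, 0.8 under HFD and 0.808 under HFD_HDCA, so the same name covers different scores. Of the scored barcodes, 498 of 1997 in ND, 433 of 2279 in HFD and 729 of 2748 in HFD_HDCA lay within 0.05 of a limit. Genes kept out of the score lay in their known zone for 8 of 8 pericentral and 6 of 6 periportal genes in every library. Periportal barcodes were deeper, with medians of 2799, 2051 and 2660 nuclear-encoded UMIs against 843, 982 and 1180 in pericentral ones.

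Ces1g and Ces2e were pericentral in all 3 libraries. Ces1g was at 290 CPM in pericentral and 169 in periportal barcodes of ND, 296 and 116 in HFD, and 192 and 47.7 in HFD_HDCA. The log2 ratios were 0.78 (0.54 to 1.01), 1.35 (1.09 to 1.62) and 2.01 (1.72 to 2.32). Ces2e was at 197.5 and 110 CPM in ND, 199 and 79.2 in HFD, and 347 and 143 in HFD_HDCA, with ratios of 0.85, 1.33 and 1.27. Among barcodes of at least 1500 nuclear-encoded UMIs, the ratios were 1.21, 1.39 and 2.12 for Ces1g and 1.23, 1.55 and 1.44 for Ces2e. Each was larger than over all scored barcodes. Over 10 recomputations with other settings, the HFD_HDCA ratio ran from 0.631 to 2.411 for Ces1g and from 0.545 to 1.551 for Ces2e. The lowest Ces2e value was under 1.5-fold. With barcodes thinned to 500 UMIs, the HFD_HDCA ratio of the Ces2 sum was 0.614, against 1.278 before. Both genes stayed above 0 in every recomputation of each library.

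Ces1d was pericentral in the high fat libraries, at 382.5 CPM against 192 in HFD and 611 against 317.5 in HFD_HDCA. In ND it was at 500.3 and 361 CPM, and the ratio of 0.47 (0.30 to 0.64) did not reach 1.5-fold. It did among barcodes of at least 1500 UMIs (0.63). Over 10 recomputations with other settings, the Ces1d ratio ran from 0.380 to 0.778 in ND and 0.833 to 1.129 in HFD. In HFD_HDCA it ran from 0.406, under 1.5-fold, to 1.184. Ces1b, Ces1c and Ces1f had no ratio past 1.5-fold in any library. Ces1e was at 234 and 119 CPM in ND, a ratio of 0.98 (0.70 to 1.25), which was 0.51 in barcodes of at least 1500 nuclear-encoded UMIs and thus under 1.5-fold there. With 1 pair of zone limits for all libraries, which left 207 pericentral ND barcodes, the ratio was -0.025, so neither its size nor its direction held.

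Ces3b was the only member on the periportal side in all 3 libraries. It was at 261 CPM in periportal and 154 in pericentral barcodes of ND, 371 and 309 in HFD, and 88.2 and 53.8 in HFD_HDCA. The pericentral over periportal ratios were -0.76 (-1.04 to -0.49), -0.26 (-0.46 to -0.07) and -0.71 (-1.07 to -0.37). After thinning every barcode to 500 UMIs and scoring it again, they were -0.02, 0.10 and -0.02, so the gradient was not seen at that depth. Among barcodes of at least 1500 UMIs they were -0.55, -0.30 and -0.67. Ces3a was nearly level in ND, with 1108 CPM in pericentral and 1229 in periportal barcodes, and leaned pericentral in HFD, with 1753 and 1255, and in HFD_HDCA, with 1302 and 929.

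Counted together, 3 members were at least 1.5-fold higher in pericentral barcodes of ND and 1 lower, where 17.1% of genes other than the landmarks were higher and 8.37% lower. In HFD 4 were higher and 0 lower, against 14% and 10.4% of genes. In HFD_HDCA 4 were higher and 1 lower, against 11.2% and 7.24%.

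The side on which Ces2a was higher was not the same in all libraries. In ND it was at 251 CPM (periportal), 212 (middle) and 177 (pericentral). In HFD it was at 67.5, 81.1 and 107 CPM in that order, and in HFD_HDCA at 32.7, 58.1 and 80.4. Over 10 recomputations with other settings, the pericentral over periportal ratio of Ces2a in ND stayed below 0, from -0.649 to -0.133. Within zones, Ces2a in HFD against ND was at -1.89 (-2.22 to -1.59) in periportal, -1.38 in middle and -0.72 (-1.07 to -0.38) in pericentral barcodes. For HFD_HDCA against ND the ratios were -2.94, -1.86 and -1.14. The deficit was deepest on the portal side in both comparisons, where the scores of a zone differ between libraries as given above.

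Ces3b passed 2-fold in every zone. Ces3b in HFD_HDCA against HFD was at -2.52 in pericentral, -2.26 in middle and -2.07 in periportal barcodes. Ces2a there was at -0.42, -0.48 (-1.01 to 0.06, which held 0) and -1.05. Ces1g in the same comparison was at -0.62, -0.57 and -1.28, so that its periportal level alone passed 2-fold. Ces1f passed 2-fold upward in pericentral barcodes only, at 1.07 (0.82 to 1.33), with 0.60 in periportal ones. Ces1e in HFD against ND was at -1.65 in pericentral and -0.85 in periportal barcodes. Ces1g in HFD against ND was at 0.03 in pericentral and -0.545 (-0.819 to -0.279) in periportal ones. Differences between zones in these ratios were not tested.

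**Figure D5:**
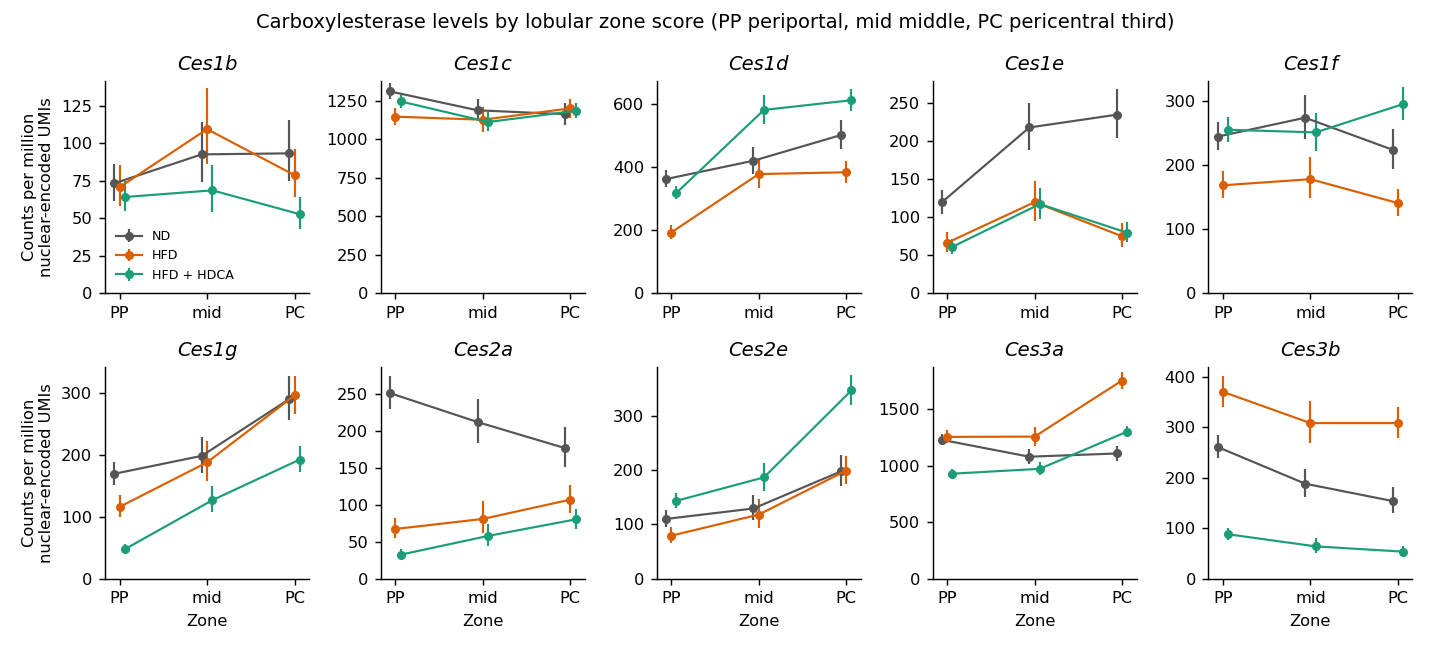
Each panel shows 1 gene in CPM in the periportal (PP), middle (mid) and pericentral (PC) zone of barcodes by score, with 1 line per library and bars for the 95% counting interval. Ces2a slopes down toward the pericentral zone in ND, from 251 to 177, and up in HFD and HFD + HDCA, while Ces1g and Ces2e slope up in all 3 libraries.

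Of the other carboxylesterases in the files, Ces1a, Ces1h and Ces2f had 0 UMIs in every library. Taking 3 UMIs per library as the limit that a count of 0 allows, this permits up to 0.702 CPM in ND, 0.803 under HFD and 0.518 under HFD_HDCA. Ces2b, Ces2h and Ces5a had at most 3 UMIs in any library. Ces2c, a drug hydrolase of the Ces2 array, was at 23.9 CPM in ND, 29.2 under HFD and 10.9 under HFD_HDCA. Ces2c shared 35.7% of its 3′ windows with another gene. It fell 2.68-fold in HFD_HDCA against HFD (log2 ratio -1.42, interval -1.90 to -0.96). Ces2g was at 29.0, 22.2 and 35.2 CPM, and Ces4a had 7, 20 and 2 UMIs. Within the Ces2 array, Ces2a and Ces2c were thus low in HFD_HDCA where Ces2e and Ces2g were not.

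Genes that share work or control with the carboxylesterases were read from fixed lists. The receptors CAR and PXR sense xenobiotics and bile acids and are known to induce several drug-metabolising genes. Of 11 measured CAR and PXR targets, 6 were at least 2-fold lower and 3 higher in HFD against ND (median -1.30), and 0 lower and 3 higher in HFD_HDCA against HFD (median 0.58). The last 3 include Gsta1, from 2 to 11 UMIs, with an interval that held 0 (-0.37 to 5.04). Cyp3a11, the main drug oxidase of the list, was at 4490 CPM in ND, 107 under HFD and 179 under HFD_HDCA, and Cyp2b9 at 1, 19 and 1190 UMIs. Ces2a was low in both high fat libraries like Cyp3a11, and unlike Cyp2b9. The receptor genes Nr1i2 and Nr1i3 were among 14 regulators, of which Bcl6, a transcriptional repressor, was lower in HFD against ND (-2.44) and Ppara, the fatty acid receptor, higher (1.21). In HFD_HDCA against HFD, 0 of the 14 passed 2-fold, and Nr1i2 was at -0.55 (-0.92 to -0.18).

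Of 11 NRF2 targets, genes of the antioxidant response, 5 were lower and 0 higher in HFD against ND (median -0.95), with Gstm1 at -1.48 and Gsta4 at -1.47. In HFD_HDCA against HFD 1 was higher (Gsta1, from 2 to 11 UMIs, with an interval that held 0) and 1 lower (Hmox1, -1.19). The lists overlap, since Gsta1, Gstm1 and Gstm3 stand in both of the last 2 lists of targets. Ephx1 stands both among the NRF2 targets and in the next list, of other xenobiotic esterases and hydrolases. Aadac stands in that list and in the one of other neutral lipid hydrolases. Of 11 other xenobiotic esterases and hydrolases, only Ephx1 passed 2-fold in HFD against ND (-1.13), and 0 did in HFD_HDCA against HFD, where Pon3 was at 0.57 and Bche at 0.56. Of 12 other neutral lipid hydrolases and cofactors, only G0s2, an inhibitor of adipose triglyceride lipase, passed it, downward in HFD against ND (-2.10) and upward in HFD_HDCA against HFD (1.77). G0s2 was at 242 CPM in ND, 56.5 under HFD and 194 under HFD_HDCA, lowest in HFD as Ces1d and Ces1f were. Of 10 lipoprotein assembly genes, 0 passed 2-fold in either comparison, and the furthest was Soat2 at -0.92 in HFD against ND. The background shares given above for each comparison apply to these lists.

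The genes whose levels followed each group most closely over the 9 points of library and zone were found among 3252 genes by Pearson's r of log2 CPM. They were Apoc1 (0.985), Romo1 (0.976) and Nr2f2 (0.963) for the Ces1 sum, Ugt2b35 (0.945), Romo1 (0.939) and Slirp (0.925) for the Ces2 sum, and Dbt (0.940), Nudt7 (0.932) and Slco1a1 (0.928) for the Ces3 sum. Ces2a and Ces3b, added after their values were seen, were followed most closely by Hsd17b2 (0.972) and Serpina3k (0.987). The 9 points come from 3 libraries and share their depth, so these are descriptions.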

How the data were processed

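Primary hepatocytes from 3 diet groups, 1 library each, had been profiled by 3′ single-cell RNA sequencing. The deposited matrices hold UMI counts per gene and barcode, and per the file headers the authors made them with Cell Ranger 5.0.0. The submitters' processing notes name mm10. No source used here gives the barcode calling or alignment settings.

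Barcodes of 200 or more genes and no more than 50% mitochondrial counts were kept, and their counts summed (Python 3.11.15, numpy 2.4.6, scipy 1.17.1). CPM used nuclear-encoded counts. Log2 ratios used counts raised by 0.5, with exact conditional binomial 95% intervals. CPM intervals are exact Poisson and shares of barcodes exact binomial (Clopper-Pearson). Measured genes had at least 100 summed counts (7855; 7840 without landmarks). The size rules, 2-fold between libraries and 1.5-fold between zones, replace tests. No doublet caller was run. TMM factors came from edgeR 4.0.16, only for scaling. The computation was tested on simulated data. The members, gene lists and rules were chosen with earlier results of these data known. Named were the 10 members, other carboxylesterases with at least 20 summed counts, up to 4 genes per list with the largest ratios, and the 3 genes most like each group, with additions said to be chosen after seeing values.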

Additional observations from a re-analysis of the deposited data

Results flagged for a closer look

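Ces2a and Ces3a lay on opposite sides of 0 in different libraries when pericentral barcodes were set against periportal ones. For Ces2a the log2 ratio was -0.50 in ND, 0.67 under HFD and 1.30 under HFD_HDCA, and each interval excluded 0. For Ces3a it was -0.15 in ND, 0.48 under HFD and 0.49 under HFD_HDCA. The difference between libraries was not tested, since each diet had 1 library. In barcodes of at least 1500 nuclear-encoded UMIs, a limit chosen after seeing the data, Ces2a kept its signs with -0.20 (-0.52 to 0.10), 0.73 and 1.41, although the ND interval then held 0. Ces3a did not, with 0.09 (-0.04 to 0.21) in ND, 0.60 under HFD and 0.58 under HFD_HDCA. Over 10 recomputations with other settings, the ND ratio ran from -0.649 to -0.133 for Ces2a and from -0.369 to 0.130 for Ces3a. With 1 pair of zone limits for all libraries, the ND ratio of the Ces2 sum was 0.461, against 0.052 before. That of the Ces3 sum was 0.018, against -0.239.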

How the results depend on the processing

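No paired analysis was possible because each group had 1 library. The ratios of members and groups between libraries kept their direction in 489 of 507 recomputations and their side of 2-fold in 505. Ratios between zones kept direction in 377 of 390 and their side of 1.5-fold in 370. With barcodes thinned to 500 UMIs, members at least 2-fold lower in HFD_HDCA against HFD numbered 2, since Ces1g reached -1.01, and members lower in pericentral barcodes of HFD_HDCA numbered 0. In barcodes of at least 1500 nuclear-encoded UMIs, added after seeing the data, members at least 2-fold lower in HFD against ND numbered 1, and those lower in pericentral barcodes of ND 0. With 1 pair of zone limits for all libraries (0.286 and 0.750), 207 ND barcodes were pericentral and Ces1e there turned to -0.025 against periportal ones. The other counts of members stayed within 1.5 times their reported value. Causes were not tested. The fewest UMIs behind a member's level were 301, for Ces2a in HFD. Without replicates, spread between animals is unknown.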

Other observations

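Barcodes removed for over 50% mitochondrial counts (454 in ND, 200 under HFD and 502 under HFD_HDCA) also held Ces2a highest in ND and Ces3b highest in HFD. Ces2a was at 328 CPM (247 to 427) in ND, 44.0 (9.08 to 129) under HFD and 46.0 (21.04 to 87.3) under HFD_HDCA. Ces3b was at 328 CPM in ND, 587 (419.5 to 800) under HFD and 102 (62.4 to 158) under HFD_HDCA. Ces1e was at 524 CPM in ND, 161.5 under HFD and 204.5 under HFD_HDCA, above its level in the retained barcodes of each library.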
